A study of Mus musculus with 15 samples.

Results

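Dexamethasone was compared with vehicle in a mouse macrophage-like line, RAW264.7, under stimulation with lipopolysaccharide (LPS), the bacterial cell wall component that activates macrophages through Toll-like receptor 4. The comparison rests on 6 of the 15 one-colour Agilent arrays of the series, namely the 3 with DEX and the 3 with EtoH_DMSO in their titles. All noncontrol probes were used, and 19504 of the 19506 genes measured above background in the series could be tested between both groups. DEX cells received 100 nM dexamethasone for 1 h and then 1 ug per ml of LPS for 16 h, and vehicle cells the solvents ethanol and DMSO. The vehicle labels name only the solvents, while the protocol given for every sample includes LPS, so all vehicle cells are taken to have had LPS as well, and each difference is one of DEX plus LPS against LPS. The labels do not say in which solvent dexamethasone was dissolved, and cells without LPS are not analysed here. Another group, fluticasone furoate (FF, 100 nM, 3 arrays, same LPS), is used below where a difference between 2 glucocorticoids was tested. RAW264.7 is a single virus-transformed line that divides in culture, which limits it as a model of resting tissue macrophages. The labels give 3 replicates per group, whereas the design text of the series speaks of duplicated treatments. Neither says whether the 3 came from separate cultures, so the p-values measure the spread between samples that may be technical.

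Glucocorticoids cross the cell membrane and bind the glucocorticoid receptor (gene Nr3c1), which is held in the cytoplasm by heat shock chaperones until it is loaded with hormone. In the nucleus the receptor either binds DNA at glucocorticoid response elements and raises the transcription of genes such as Fkbp5 and Tsc22d3, or it is tethered to other factors and lowers the output of NF-kB, AP-1 and interferon regulatory factors. In macrophages these drugs are known for lowering cytokines, chemokines and nitric oxide synthesis after LPS. LPS itself raises these genes along with an autocrine loop in which interferon beta acts through STAT2 and IRF9 on many antiviral genes.

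A level below is the log2 processed signal of a gene's brightest tested probe minus the array's 75th percentile, and a change is the mean DEX level minus the mean vehicle level, so that a change of 1 is a 2-fold difference. Called means an adjusted p under 0.05 from limma, fitted over all 15 arrays and Benjamini-Hochberg adjusted over all genes tested. By this rule 46.3% of all genes tested were called, 23.2% higher and 23.1% lower with DEX, and 8.64% were called at least 2-fold higher and 8.59% at least 2-fold lower. The 3 DEX arrays did not overlap the 3 vehicle arrays in 60% of genes tested, 30.3% with DEX above and 29.7% with DEX below. Every count of members below is to be read against these shares, and the median change of all genes was 0.03. Of the spots on these 6 arrays 46.4 to 50.3% were well above background and none was saturated. DEX arrays correlated with each other at 0.981 to 0.984, vehicle arrays at 0.987 to 0.99 and DEX with vehicle arrays at 0.949 to 0.963. Of the 10 macrophage markers, 10 were above background on all 6 arrays, with summed linear signals of 899 to 1063 times the 75th percentile in DEX and 904 to 1023 in vehicle. Single macrophage markers did differ, with 4 called higher (Csf1r, Itgam, Ptprc and Tyrobp) and 2 lower (Fcgr1 and Spi1). Of 5 epithelial markers none was above background on any array, and 0 of 5 B cell markers were on all 6. The B cell markers Pax5 and Ms4a1 were above background on 3 and 2 of 3 vehicle arrays, and on 0 of 3 DEX arrays. The summed B cell markers were 0.0572 to 0.0667 in DEX and 0.179 to 0.208 in vehicle. Among T cell markers, the probes of Cd3e and Cd4 were above background on all 6 arrays. They were not called (changes 1.38 and 1.03, adjusted p = 0.0824 and 0.161 by limma). Cd3d was above background on 0 of 3 DEX and 3 of 3 vehicle arrays, so its call as lower rests on DEX signals below background. Cd3g and Cd8a were below background on all 6 arrays. The summed T cell markers were 49.1 to 101 in DEX and 25.9 to 43.3 in vehicle, and the 6 osteoclast markers, of which 5 were above background on all 6 arrays, 24.7 to 27.8 in DEX and 16.0 to 20.6 in vehicle. Among the osteoclast markers Acp5 and Mmp9 were called higher, and Ctsk and Dcstamp lower. Of 5 markers each, 2 dendritic cell (76.1 to 105 in DEX, 67.8 to 92.1 in vehicle), 1 fibroblast (0.228 to 0.325 in DEX, 0.205 to 0.237 in vehicle) and 1 neutrophil or mast cell marker (58.7 to 112 in DEX, 32.2 to 66.3 in vehicle) were above background on all 6 arrays, and their part in the results was not tested.

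The 3 DEX arrays lay on slide 2 and the 3 vehicle arrays on slide 1, and each group also filled its own positions, so the effects of drug, slide and position cannot be told apart within these 6 arrays. VSG159, with replicates 1 and 2 on slide 1 and replicate 3 on slide 2, is the group with arrays on both slides. It lets slide be fitted as a block over all 15 arrays. The fixed slide term thus sets VSG159 replicate 3 against replicates 1 and 2, so all fixed-block values depend on that single array. The fit with slide as a fixed block called 8246 genes, 6053 of them among the 9037 called without it. A random slide block called 7966, with 7116 in common. With slide and position together in the model, 38 genes were called. Counts and calls that moved with slide are given beside the results they touch. Scaling each array by its median in place of its 75th percentile left the list medians within 0.05 of their values but called 4926 genes, and it moved 29 of 54 list counts of 3 or more by over 1.5 times. The falls of antiviral genes and GTPases then numbered 36 and 15, and the rises of replication, mitosis and ribosome biogenesis genes 28, 29 and 27. Other lists moved more. Falls went from 12 to 6 for cytokine brakes and from 14 to 7 for phosphatases and decay factors. They went from 13 to 6 for glycolytic and hypoxia-inducible genes and from 14 to 6 for lysosomal genes. Rises of sterol and fatty acid synthesis genes went from 14 to 7. In RNA from whole cultures, more RNA per cell and more cells of one state cannot be told apart either.

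**Figure D1:**
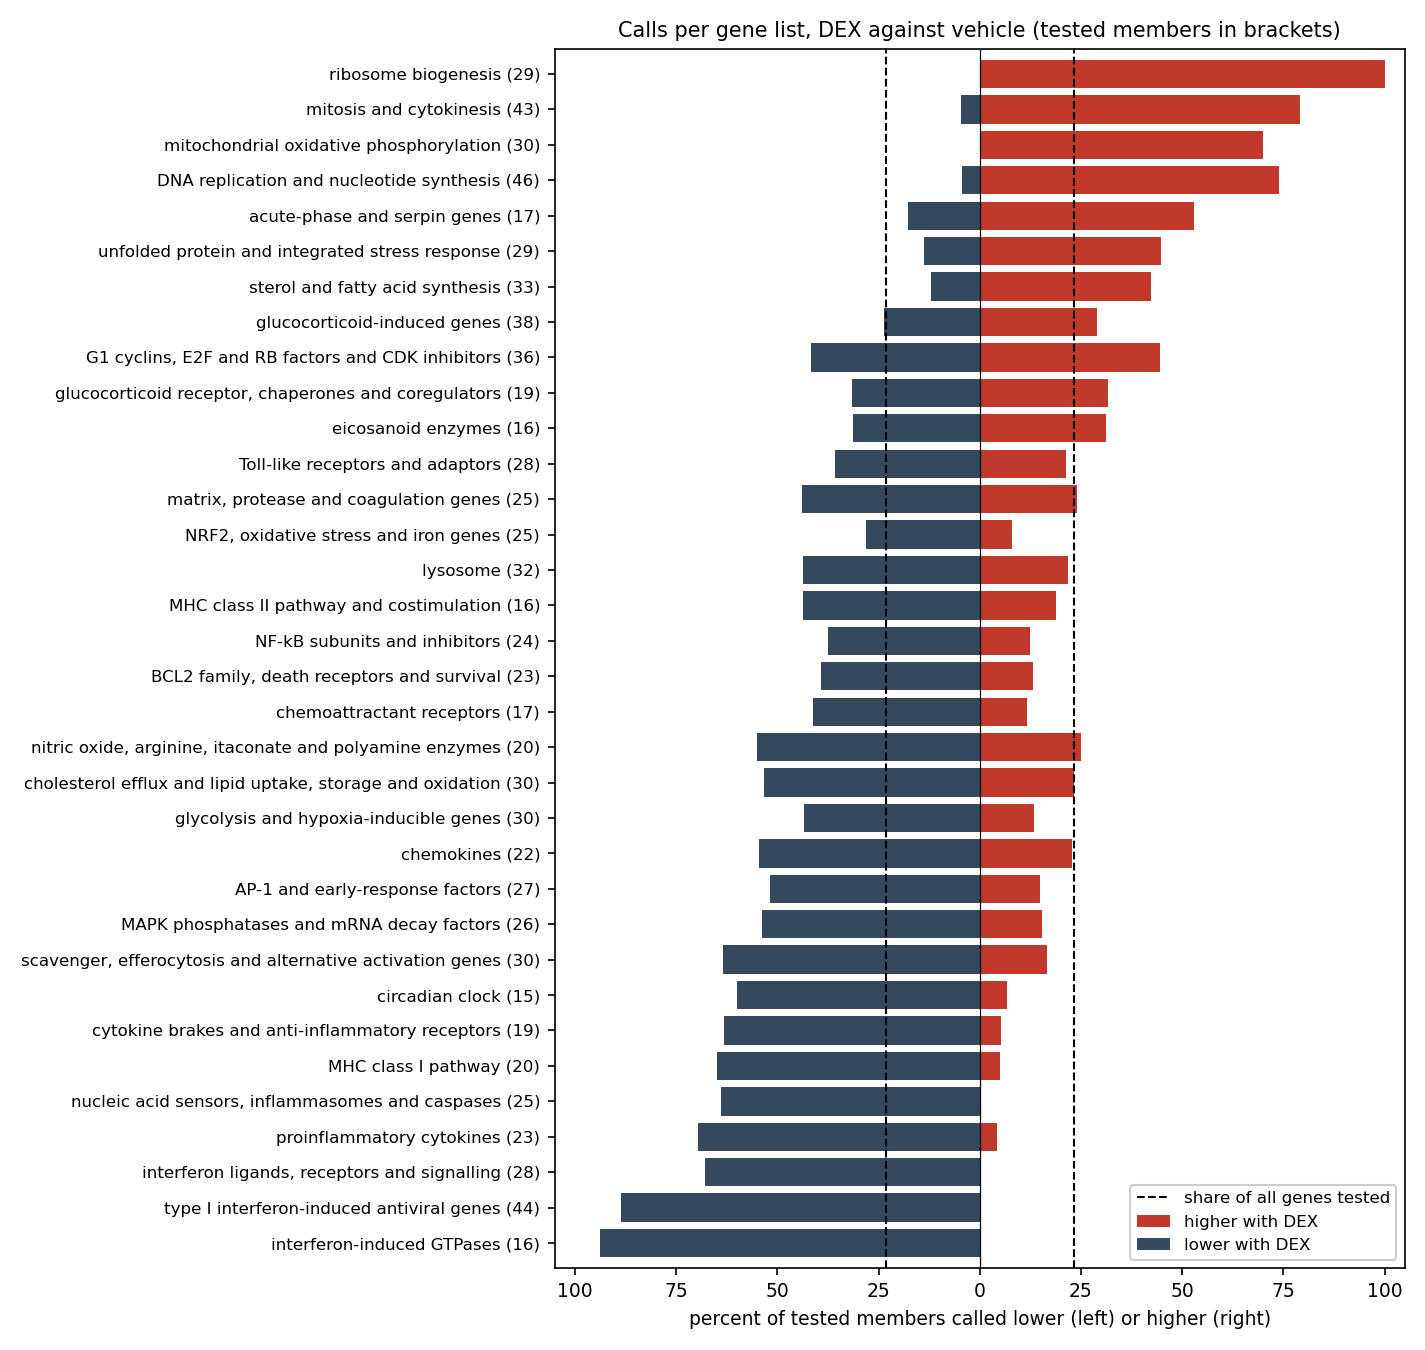
Percent of the tested members of 34 gene lists that were called higher (right) or lower (left) with DEX than with vehicle, with the number of tested members in brackets and dashed lines at the shares of all genes tested (23.2% and 23.1%). Ribosome biogenesis stands at 100% higher at the top, and the interferon-induced GTPases at 93.8% lower at the bottom.

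Genes known to be induced by glucocorticoids elsewhere did not move as a block. Of 38 tested genes on a list of glucocorticoid-induced genes from other cell types, 11 rose (28.9%), 9 fell (23.7%) and 18 were not called. These shares are near the 23.2% and 23.1% of all genes tested, and whether the receptor acts on these genes directly was not tested. The median change was -0.02 and lay between -0.08 and 0.05 under slide blocks and leave-outs. Fkbp5, a co-chaperone that lowers the receptor's affinity for hormone, had levels of 4.87, 4.44 and 4.68 on the DEX arrays, against 1.17, 0.98 and 1.35 on the vehicle arrays. It rose 11.3-fold (change 3.50, SE 0.13, n = 3 arrays per group, adjusted p = 1.03e-08 by limma). The lipoprotein lipase inhibitor gene Angptl4 stood at -0.14, 0.18 and 0.06 with DEX, against -3.21, -3.53 and -2.73 with vehicle, a change of 3.19 (SE 0.25). For both genes every DEX array lay far above every vehicle array. Mertk, the receptor tyrosine kinase with which macrophages bind dying cells, was measured at -1.03, -0.92 and -0.94 with DEX and was above background on 3 of 3 DEX arrays and 1 of 3 vehicle arrays, where its levels were -3.66, -5.26 and -6.24 (change 4.09, SE 0.46). Tsc22d3, which encodes the anti-inflammatory protein GILZ, rose by 0.83 (SE 0.11), and its second probe, with 0.24, was not called. Other genes of the list fell, among them the G protein regulator Rgs2 (-1.40), the mTOR inhibitor gene Ddit4 (-1.21) and the interleukin 7 receptor gene Il7r (-0.72). Dusp1, the MAPK phosphatase that glucocorticoids induce in many cells, had levels of 6.92, 6.86 and 7.21 with DEX, against 6.74, 6.77 and 7.11 with vehicle, which overlapped (change 0.12, adjusted p = 0.469, not called).

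The machinery of the receptor split as well. Of 19 tested genes for the receptor, its chaperones and its coregulators, 6 rose and 6 fell (31.6% each). Among all genes tested 23.2% rose and 23.1% fell. The rises on the list numbered 3 with slide as a fixed block. Fkbp4, the co-chaperone that helps carry the loaded receptor to the nucleus, rose by 1.39 (SE 0.11), with DEX levels of 4.35, 4.30 and 4.30, against vehicle levels of 2.91, 2.85 and 3.01. The heat shock genes Hsp90aa1 and Hspa8, whose products fold the receptor, fell by 1.16 (SE 0.10) and 1.03 (SE 0.07). Their DEX arrays lay below all vehicle arrays. Hspa1a, a stress-induced HSP70 gene, was above background on 1 of 3 DEX arrays and 3 of 3 vehicle arrays, with levels of -3.79, -4.89 and -4.53 in DEX and -0.09, -0.13 and -0.16 in vehicle (change -4.28, SE 0.27). Nr3c1 was called lower by 0.34 on its brightest probe (adjusted p = 0.0461). This call ended when DEX replicate 2 or 3 or any vehicle array was left out and under 7 other settings. A second Nr3c1 probe, above background on 3 of 3 arrays of each group, was called lower by 1.48 (adjusted p = 3.24e-06 by limma).

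The highest rises with DEX included acute-phase proteins and serpins, plasma-type proteins that the liver also makes in inflammation. Of 17 tested members 9 rose and 3 fell, with a median of 1.16 that ranged from 0.67 (without vehicle replicate 1) to 1.52 when 1 array was left out, and stood at 2.16 with slide as a fixed block. Hp, which encodes the haemoglobin-binding protein haptoglobin, had DEX levels of 3.55, 3.41 and 3.30, against vehicle levels of -2.77, -2.38 and -2.41. This is a 61.4-fold rise (change 5.94, SE 0.19, adjusted p = 2.82e-09), with no overlap. Saa2, a serum amyloid A gene, stood at 0.08, 0.03 and -0.38 with DEX and -2.57, -3.0 and -2.97 with vehicle, a change of 2.76 (SE 0.24), whereas its relative Saa3 differed by 0.29 and was not called (adjusted p = 0.0887). In the Serpina3 cluster, which encodes inhibitors of serine proteases, Serpina3g was above background on 3 of 3 DEX arrays and on 0 of 3 vehicle arrays and was at least 31.9-fold higher. Where a gene is below background in a whole group, such a lower bound sets the bright group's mean against the lowest signal that counts as above background. Serpina3i was at least 2.27-fold higher, and Serpina3f, above background on 2 of 3 vehicle arrays, rose by 4.01 (SE 0.14). These genes are near-identical copies, so their probes may share targets. Intracellular serpins went down, with falls of 3.23 for Serpinb9 (SE 0.16), which inhibits granzyme B, and of 3.49 for Serpinb6b (SE 0.41).

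Outside the lists, Arl14epl was at least 117-fold higher with DEX, at levels of 2.57, 2.08 and 2.37 on the DEX arrays and with 0 of 3 vehicle arrays above background. Flrt3, which encodes a membrane adhesion protein, was at least 21.9-fold lower, with vehicle arrays at 0.22, 0.06 and 0.20 and no DEX array above background.

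**Figure D2:**
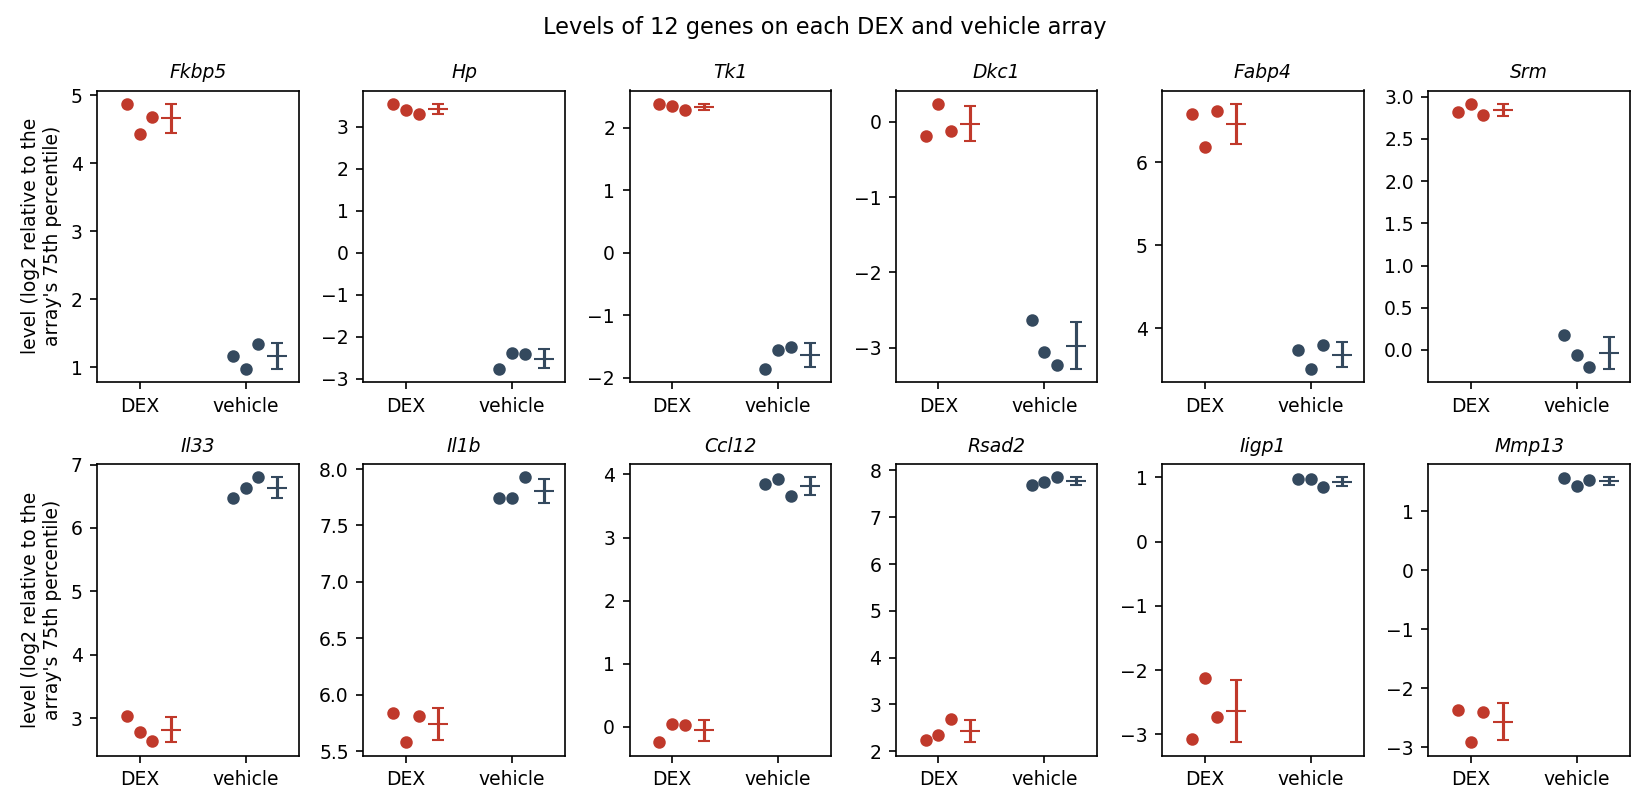
Levels of 12 genes on each of the 3 DEX (red, left) and 3 vehicle arrays (dark, right), as log2 signal relative to the array's 75th percentile, with the mean and SD beside the points. Each panel has its own scale, and in all 12 the DEX arrays lie on 1 side of the vehicle arrays.

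Cytokine genes were lower with DEX in most cases. Of 23 tested proinflammatory cytokines 16 fell, 1 rose and 6 were not called, and the median change was -1.30. Il33, an alarmin of the interleukin 1 family, had levels of 3.04, 2.78 and 2.64 with DEX, against 6.47, 6.62 and 6.80 with vehicle, and fell by 3.81 (SE 0.26, adjusted p = 3.71e-07). Il15, the cytokine that sustains NK cells and memory T cells, stood at 0.24, 0.35 and 0.19 with DEX, against 3.38, 3.48 and 3.28 with vehicle (change -3.12, SE 0.14). Il1b was at 5.84, 5.58 and 5.81 in DEX arrays, against 7.74, 7.74 and 7.93 in vehicle arrays, so it fell by 2.06 (SE 0.15). In all 3 of these genes the groups were wide apart relative to their spread. Il19, of the interleukin 10 family, fell by 2.36 (SE 0.21), and Lif, which signals through gp130, by 1.71 (SE 0.30). Tnfsf14, whose product LIGHT stimulates T cells, was at least 5.08-fold lower, with no DEX array above background. Il6 fell by 1.01 (SE 0.12), with levels of 4.63, 4.61 and 4.82 with DEX, against 5.77, 5.63 and 5.68 with vehicle. Tnf differed by -0.31 on its brightest probe (adjusted p = 0.0499). This call ended when any array other than vehicle replicate 3 was left out and with slide as a fixed or random block, among other settings. A second Tnf probe differed by -0.39 and was called (adjusted p = 0.014 by limma).

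Genes that hold inflammation back fell too. Of 19 tested cytokine brakes and anti-inflammatory receptors, 12 fell and 1 rose. Il10, the main anti-inflammatory cytokine of macrophages, had DEX levels of 1.85, 1.76 and 1.92, against vehicle levels of 3.08, 3.21 and 3.28 (change -1.35, SE 0.10). Il18bp, which neutralises interleukin 18, fell by 1.73 (SE 0.14), Entpd1, which degrades extracellular ATP, by 1.61 (SE 0.24), and the haem-degrading enzyme Hmox1 by 1.72 (SE 0.11). Tgfbr1, a receptor subunit for TGF-beta, was the member that rose, by 0.99 (SE 0.18).

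Chemokines moved both ways. Of 22 tested ligands 12 fell (54.5%) and 5 rose (22.7%), the rises numbering 3 without DEX replicate 3. The share of rises is near the 23.2% of all genes tested, while 23.1% of all genes tested fell. Ccl12, a monocyte attractant, fell by 3.87 (SE 0.12, adjusted p = 2.82e-09), with levels of -0.25, 0.05 and 0.02 on the DEX arrays, against 3.85, 3.93 and 3.66 on the vehicle arrays. The interferon-inducible T cell attractant Cxcl10 stood at 3.43, 3.27 and 3.60 with DEX, against 6.57, 6.44 and 6.42 with vehicle (change -3.04, SE 0.21). Ccl7 fell by 1.90 (SE 0.09), while Ccl2, in the same gene cluster, differed by -0.48 (SE 0.11), a call that median scaling of the arrays ended. The levels of Ccl3, a neutrophil and monocyte attractant, were 7.68, 8.03 and 8.15 in DEX and 7.82, 8.13 and 8.09 in vehicle and overlapped (change -0.06, not called). In the other direction, platelet factor 4 (Pf4) had DEX levels of 3.16, 3.05 and 2.84, against vehicle levels of 1.04, 1.09 and 0.92, and rose by 2.0 (SE 0.17). Ccl25, known as an attractant of thymocytes and gut T cells, rose by 2.20 (SE 0.38) and Ccl6 by 0.70 (SE 0.15).

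Among chemoattractant receptors 7 of 17 tested fell and 2 rose. Ccrl2, an atypical receptor that binds chemerin, fell by 2.43 (SE 0.14), with levels of 2.58, 2.81 and 3.03 in DEX, against 5.25, 5.13 and 5.33 in vehicle. The complement receptors parted: C3ar1 fell by 2.34 (SE 0.17) and C5ar1 rose by 0.77 (SE 0.12). Ptafr, the receptor for platelet activating factor, fell by 1.55 (SE 0.09), the UDP receptor P2ry6 by 1.22 (SE 0.10), and the eotaxin receptor Ccr3 was at least 3.07-fold lower, with no DEX array above background.

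The receptors and adaptors that detect LPS and other microbial products moved in both directions. Of 28 tested Toll-like receptors and adaptors 6 rose (21.4%) and 10 fell (35.7%), 1 and 5 of them at least 2-fold, with 3 rises with median scaling. Of all genes tested, 23.2% rose and 23.1% fell. Some of these rises depended on the probe. Ly96 rose by 0.71 but had another probe called lower (-0.79), and Irak1 rose by 0.62 but had others at -0.57 and -0.43, not called. With slide as a fixed block the rise of Irak1 was not called (adjusted p = 0.111 by limma). Another Tlr13 probe (0.10) was not called, and both other Irak3 probes (0.97 and 0.63) were called higher. Tlr2, the receptor for bacterial lipopeptides, rose by 0.85 (SE 0.12), and Irak3, which restrains signalling downstream of these receptors, by 1.02 (SE 0.12). Tlr3, the receptor for double-stranded RNA, fell by 1.75 (SE 0.13), with DEX levels of -2.53, -2.13 and -2.13 against vehicle levels of -0.56, -0.60 and -0.37. Of 24 NF-kB genes 9 fell and 3 rose. Among the rises, Nfkb1 (0.41) had another probe called lower (-0.61) and one at -0.21, not called. Nfkbid (1.22) had another at 0.23, not called. Other probes of Nfkbib, Rela and Tnip3, which fell, were called lower too. Nfkbie, an NF-kB inhibitor gene, fell by 0.97 (SE 0.14) and the A20-binding protein gene Tnip3 by 1.13 (SE 0.13), whereas Traf3 rose by 0.79 (SE 0.10, second probe 0.25, not called). With median scaling 3 NF-kB genes were called lower.

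AP-1 and other early-response factors fell in 14 of 27 tested cases and rose in 4, or 2 with slide as a fixed or random block. The stress factor Atf3 had levels of 3.96, 4.14 and 4.19 with DEX, against 6.24, 6.50 and 6.30 with vehicle, and fell by 2.25 (SE 0.11, adjusted p = 4.97e-08). Jun, the core AP-1 subunit, fell by 1.63 (SE 0.14), the zinc finger gene Egr2 by 2.07 (SE 0.25) and Batf2 by 2.15 (SE 0.16). Batf3, which dendritic cells need for cross-presentation, was above background on 3 DEX arrays and 0 vehicle arrays and was at least 12.8-fold higher. The dual-specificity phosphatases that switch MAP kinases off fell as well, namely Dusp10 by 2.72 (SE 0.15), Dusp8 by 2.31 (SE 0.30), Dusp14 by 1.94 (SE 0.10) and Dusp4 by 1.30 (SE 0.10). On that list of phosphatases and mRNA decay factors 14 of 26 fell and 4 rose, the rises numbering 2 with slide as a fixed block, 0 with it as a random block, 2 without DEX replicate 3 or vehicle replicate 1 and 1 without vehicle replicate 2.

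Most tested genes of the interferon system were lower with DEX. The ligand gene Ifnb1 was above background on 3 of 3 vehicle arrays, at -1.55, -1.42 and -1.72, and on 0 of 3 DEX arrays. It was at least 6.64-fold lower with DEX. Of 28 tested ligands, receptors and signalling genes 19 fell and 0 rose (limma, 0 also at an unadjusted p under 0.05). The other 9 were not called, and with median scaling 11 were called lower. Jak1 (change 0.02) and Irf3 (change 0.17) were not called. Irf1, a transcription factor that interferons induce, had levels of 2.05, 1.83 and 1.89 with DEX, against 4.01, 4.07 and 4.03 with vehicle (change -2.11, SE 0.10). Stat2, which encodes a subunit of the factor that carries the interferon signal to the nucleus, stood at 2.06, 2.02 and 2.02 with DEX and 3.60, 3.56 and 3.65 with vehicle (change -1.57, SE 0.13). No DEX array reached a vehicle array for either gene.

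Antiviral genes that this factor switches on were almost all lower. Of 44 tested type I interferon-induced antiviral genes 39 fell, 23 of them at least 2-fold, and none rose, also at an unadjusted p under 0.05 by limma, with a median of -1.07. Rsad2, which encodes the antiviral enzyme viperin, had DEX levels of 2.24, 2.34 and 2.69, against vehicle levels of 7.69, 7.76 and 7.85, a fall of 5.35 (SE 0.27, adjusted p = 5.52e-08). Cmpk2, a mitochondrial nucleotide kinase, stood at 1.14, 1.25 and 1.30 with DEX and 6.50, 6.47 and 6.50 with vehicle, a fall of 5.26 (SE 0.15). The RNA-binding genes Ifit2 and Ifit3 fell by 5.29 (SE 0.16) and 3.59 (SE 0.12), and the dynamin-like GTPase Mx1 by 4.21 (SE 0.15). At the other end, Bst2, which tethers budding virus, had levels of 6.52, 6.43 and 6.62 in DEX and 6.51, 6.58 and 6.64 in vehicle and overlapped (change -0.05, not called). The oligoadenylate synthetase gene Oas1a had levels of 7.55, 7.61 and 7.63 in DEX and 7.63, 7.73 and 7.85 in vehicle and was not called either (change -0.14, adjusted p = 0.22). Of 16 tested GTPases of the guanylate-binding and immunity-related families, which attack the vacuoles of intracellular microbes, 15 fell and all of these at least 2-fold, with a median of -2.11. Tgtp2 fell by 3.72 (SE 0.11), with DEX levels of -1.80, -1.65 and -1.59, against vehicle levels of 2.01, 2.16 and 1.96, Iigp1 by 3.57 (SE 0.27), Gbp2b by 3.29 (SE 0.14) and Gbp2 by 3.09 (SE 0.14). Members of these families are close paralogs, and their probes may share targets.

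**Figure D3:**
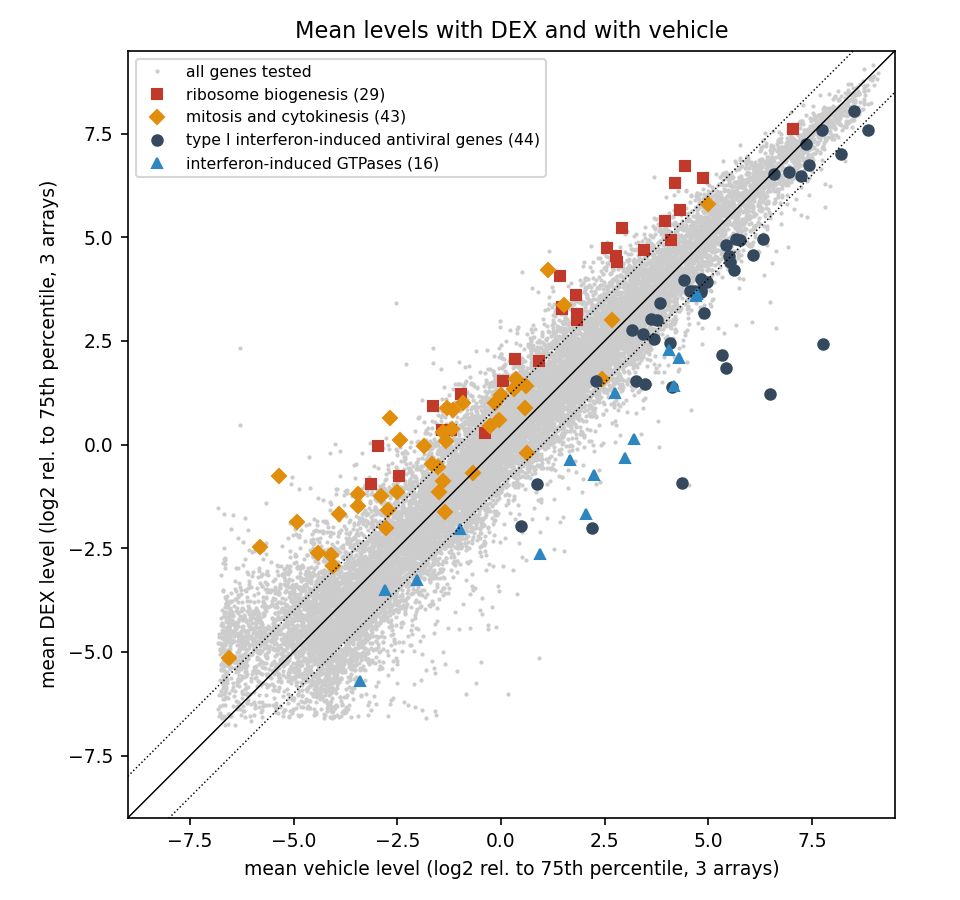
Mean level with DEX (vertical) against mean level with vehicle (horizontal), each over 3 arrays and in log2 relative to the 75th percentile, for all genes tested (grey) and 4 lists, with the number of tested members in brackets, a solid line of equality and dotted lines at 2-fold. Interferon-induced GTPases lie below the line at every vehicle level, and ribosome biogenesis and most mitosis genes above it.

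Promoter letters of the genes that fell furthest are shown because the interferon-stimulated response element is the site that IRF factors bind. In the 250 bases before the start of RefSeq genes (GRCm38.p6), the letters GAAA, 2 free bases and GAAA again were searched on both strands. They occurred in 3.42% of the 11712 genes tested here that have a window. Among the antiviral genes 11 of 32 with a window (34.4%) held them, and among the GTPases 9 of 10 (90%). The windows of the 3 matching members of each list with the largest falls follow, 5′ to 3′ on the gene's strand, with matches in capitals. A match is a description of these letters and not evidence of binding, and genes that fell as far, such as Ifit2 and Cmpk2, have no match in their windows. Bst2 and Oas1a, which were not called, do have 1.
Rsad2, chr12:26456453-26456702, minus strand: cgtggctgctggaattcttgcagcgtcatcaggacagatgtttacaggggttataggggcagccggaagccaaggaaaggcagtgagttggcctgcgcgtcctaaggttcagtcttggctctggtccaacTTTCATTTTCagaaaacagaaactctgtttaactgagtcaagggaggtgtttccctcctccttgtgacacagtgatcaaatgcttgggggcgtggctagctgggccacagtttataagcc
Ifit3, chr19:34583279-34583528, plus strand: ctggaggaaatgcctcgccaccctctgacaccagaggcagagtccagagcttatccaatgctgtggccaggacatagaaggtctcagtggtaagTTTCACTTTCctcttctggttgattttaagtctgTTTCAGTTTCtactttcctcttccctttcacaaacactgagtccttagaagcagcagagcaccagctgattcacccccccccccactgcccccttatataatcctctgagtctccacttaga
Ifit1, chr19:34640639-34640888, plus strand: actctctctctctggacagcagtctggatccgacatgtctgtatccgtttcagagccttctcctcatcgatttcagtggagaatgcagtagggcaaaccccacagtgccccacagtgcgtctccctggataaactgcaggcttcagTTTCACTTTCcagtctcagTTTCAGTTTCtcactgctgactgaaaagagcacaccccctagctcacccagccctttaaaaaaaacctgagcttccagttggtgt
Tgtp2, chr11:49064213-49064462, minus strand: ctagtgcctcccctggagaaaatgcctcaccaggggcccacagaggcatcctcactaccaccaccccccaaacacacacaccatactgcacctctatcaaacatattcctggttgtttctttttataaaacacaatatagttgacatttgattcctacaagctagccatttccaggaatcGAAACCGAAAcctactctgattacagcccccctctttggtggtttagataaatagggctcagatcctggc
Gbp2b, chr3:142594597-142594846, plus strand: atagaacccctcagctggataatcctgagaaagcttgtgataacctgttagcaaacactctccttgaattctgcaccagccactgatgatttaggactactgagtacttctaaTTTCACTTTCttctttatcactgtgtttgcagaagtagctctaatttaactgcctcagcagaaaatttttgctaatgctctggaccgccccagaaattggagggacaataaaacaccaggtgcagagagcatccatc
Gbp2, chr3:142620413-142620662, plus strand: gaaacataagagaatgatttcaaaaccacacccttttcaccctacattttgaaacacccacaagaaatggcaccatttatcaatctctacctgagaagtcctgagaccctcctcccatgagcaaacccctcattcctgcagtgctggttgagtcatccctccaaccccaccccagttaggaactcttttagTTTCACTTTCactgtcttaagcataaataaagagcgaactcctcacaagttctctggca
The matches lay 120 bases before the start of Rsad2 and 70, 137 and 59 bases before those of Tgtp2, Gbp2b and Gbp2. Ifit1, which fell by 3.16, and Ifit3 each held 2 matches. The letters of a full glucocorticoid response element, GNACA and TGTNC with 3 free bases between them, occurred in 0.367% of windows of tested genes, and on the glucocorticoid-induced list in 3 of 32, namely Sgk1, Mt1 and Slc10a6. Receptor sites are known to lie mostly outside such short windows.

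Sensors that detect microbial nucleic acids and activate caspases went the same way, with 16 of 25 tested members lower and 0 higher, or 1 higher at an unadjusted p under 0.05 by limma. The inflammasome receptor Nlrc4 fell by 1.32 (SE 0.15), the peptidoglycan sensor Nod2 by 1.12 (SE 0.10), and Gsdmd, whose product forms the pores of pyroptosis, by 1.0 (SE 0.10). Casp4, the mouse caspase-11 that detects cytosolic LPS, had levels of 4.88, 4.98 and 4.65 with DEX, against 5.76, 5.82 and 5.87 with vehicle (change -0.98, SE 0.13).

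Antigen presentation by MHC class I is driven by interferon, and 13 of 20 tested members of its pathway fell and 1 rose. The peptide transporter Tap1 fell by 1.25 (SE 0.10) and the immunoproteasome subunit Psmb9 by 1.13 (SE 0.14), while the median of the list was -0.53. On the list of MHC class II and costimulation genes 7 of 16 tested fell and 3 rose. Slamf7, a receptor of the SLAM family, had DEX levels of -2.15, -1.82 and -2.35, against vehicle levels of 1.17, 0.98 and 0.64 (change -3.04, SE 0.17). Cd83, a maturation marker, fell by 2.49 (SE 0.12) and Cd40, the receptor through which T cells activate macrophages, by 1.76 (SE 0.17), whereas the inhibitory receptor gene Havcr2 (TIM-3) rose by 0.95 (SE 0.10).

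Enzymes of nitric oxide, arginine and polyamine metabolism showed falls for 11 (55%) and rises for 5 (25%) of 20 tested members. Of all genes tested 23.1% fell and 23.2% rose, so the share of rises is near that of all genes. With median scaling the falls numbered 5. Nos2, the inducible nitric oxide synthase, stood at 6.81, 6.86 and 6.87 with DEX, against 8.21, 8.32 and 8.36 with vehicle, and fell by 1.45 (SE 0.12). Arg1, which competes for the same arginine, was at least 13-fold lower, with 0 of 3 DEX arrays above background and vehicle levels of -0.87, -0.24 and -0.66. The arginine transporter genes Slc7a2 and Slc7a1 rose by 1.60 (SE 0.12) and 1.02 (SE 0.10). In polyamine synthesis Odc1, the first enzyme, fell by 0.84 (SE 0.11), and Srm, which makes spermidine, had levels of 2.82, 2.92 and 2.78 with DEX, against 0.17, -0.07 and -0.21 with vehicle (change 2.87, SE 0.12, adjusted p = 1.39e-08). Eicosanoid genes were evenly split, 5 higher and 5 lower of 16 tested (31.25% each), with 3 rises under a fixed slide block. Ptgs2, the inducible cyclooxygenase, fell by 1.52 (SE 0.21) while Alox5, which starts leukotriene synthesis, rose by 1.35 (SE 0.13) and its activating protein gene Alox5ap by 0.93 (SE 0.15).

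**Figure D4:**
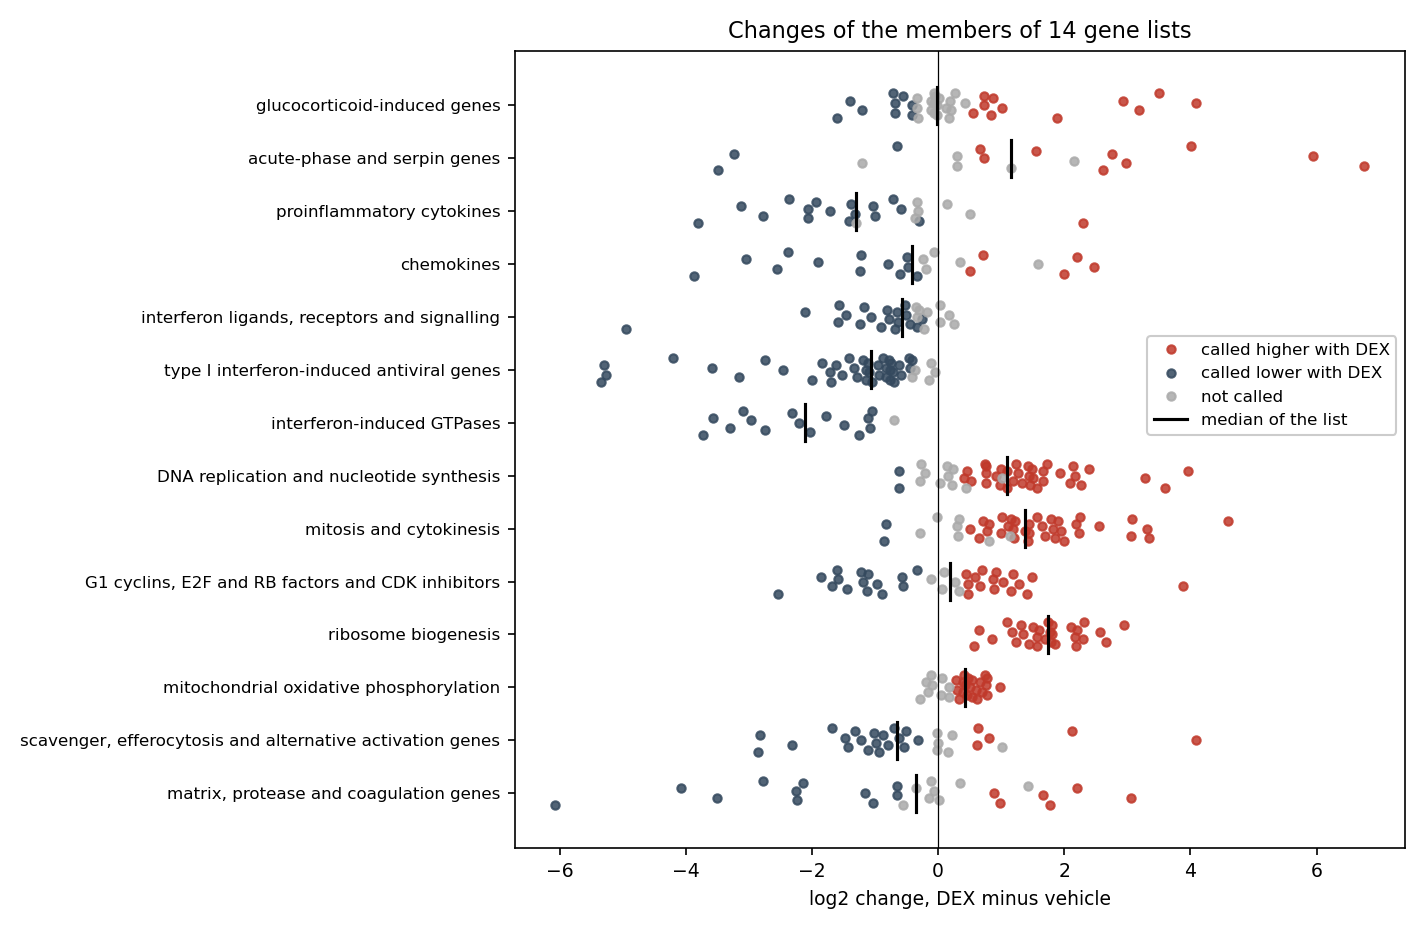
Log2 change, DEX minus vehicle, of every tested member of 14 gene lists, 1 point per gene, coloured by whether it was called higher (red), called lower (dark) or not called (grey), with a bar at the median of the list. The tested members of the antiviral and GTPase lists lie left of 0, and those of the ribosome biogenesis list right of it.

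Cell division genes were higher with DEX. Of 46 tested genes for DNA replication and nucleotide synthesis 34 rose, 24 of them at least 2-fold, and 2 fell, with a median of 1.10. Tk1, the thymidine kinase of S phase, had levels of 2.37, 2.35 and 2.28 with DEX, against -1.86, -1.55 and -1.50 with vehicle, and rose 15.6-fold (change 3.97, SE 0.12, adjusted p = 2.82e-09). Rrm2, the subunit that limits ribonucleotide reductase, stood at 2.14, 1.86 and 1.92 with DEX and -1.66, -1.84 and -1.39 with vehicle (change 3.60, SE 0.17). Dut, which keeps uracil out of DNA, rose by 3.27 (SE 0.16) and the helicase subunit Mcm6 by 2.40 (SE 0.10). Against this direction Ung, which cuts uracil out of DNA, fell by 0.63 (SE 0.10), with DEX levels of 7.77, 7.92 and 8.06, against vehicle levels of 8.61, 8.54 and 8.48.

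Mitotic genes followed, with 34 of 43 tested members higher, 2 lower and a median of 1.37. Ccna2, the cyclin of S phase and mitotic entry, had levels of 0.76, 0.66 and 0.51 in DEX, against -2.67, -2.80 and -2.56 in vehicle (change 3.32, SE 0.19). Birc5, which encodes survivin of the chromosomal passenger complex, varied more among the DEX arrays, at 3.56, 4.0 and 5.05, against 1.0, 1.04 and 1.37 in vehicle arrays (change 3.07, SE 0.42). The mitotic kinase Pbk was at least 13.6-fold and the checkpoint kinase Ttk at least 4.17-fold higher, with no vehicle array above background for either. The proliferation marker Mki67 rose by 0.80 (SE 0.16), a call that median scaling ended, and Cks2, a CDK-binding subunit, fell by 0.86 (SE 0.16).

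Genes that govern entry into the cycle were divided, with 16 rises and 15 falls among 36 tested. With slide as a fixed block the rises numbered 8. The G1 cyclin genes Ccnd1 and Ccne1 rose by 1.41 (SE 0.09) and 1.19 (SE 0.11), and the E2F factor E2f8 by 1.49 (SE 0.16). The CDK inhibitor p21 (Cdkn1a), itself on the glucocorticoid-induced list, had DEX levels of 2.78, 2.93 and 3.05, against vehicle levels of 4.43, 4.73 and 4.43 (change -1.61, SE 0.12). The Myc antagonists Mxd1 and Mxi1 fell by 2.53 (SE 0.18) and 1.59 (SE 0.10), and the stress gene Gadd45b by 1.85 (SE 0.12). Myc itself fell by 1.44 (SE 0.24) on its brightest probe and differed by 0.36 on a second, which was not called (adjusted p = 0.467).

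E2F factors, which drive the replication genes, bind letters such as TTTCCCGC and TTTGGCGC, which were searched in the same windows, and the 2 replication genes with the largest rises among those with a match are shown. Either was found in 2.61% of windows of tested genes, in 6 of 38 replication genes (15.8%) and in 4 of 30 G1 genes.
Mcm6, chr1:128359706-128359955, minus strand: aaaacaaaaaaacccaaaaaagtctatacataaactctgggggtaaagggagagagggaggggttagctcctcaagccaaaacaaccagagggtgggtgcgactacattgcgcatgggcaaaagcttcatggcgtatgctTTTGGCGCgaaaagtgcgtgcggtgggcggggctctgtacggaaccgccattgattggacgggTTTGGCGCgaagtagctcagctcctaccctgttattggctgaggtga
Mcm7, chr5:138171884-138172133, minus strand: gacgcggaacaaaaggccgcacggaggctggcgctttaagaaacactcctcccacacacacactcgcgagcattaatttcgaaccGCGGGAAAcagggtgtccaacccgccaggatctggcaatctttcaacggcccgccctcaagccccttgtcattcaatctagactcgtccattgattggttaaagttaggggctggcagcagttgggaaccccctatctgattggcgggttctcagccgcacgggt
Mcm6 held 2 matches, 47 and 110 bases before its start, and Mcm7, whose change was 1.73, held 1 in 1 of its 2 windows. Tk1, Rrm2 and Dut, with larger changes, have none there.

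Ribosome biogenesis was the list of the 34 in which every tested member was called in 1 direction. All 29 were higher, 26 of them at least 2-fold, with a median of 1.74 and a range from 0.58 to 2.95. Dkc1, the pseudouridine synthase of box H/ACA particles, had levels of -0.19, 0.24 and -0.12 with DEX, against -2.63, -3.06 and -3.23 with vehicle (change 2.95, SE 0.16). Nolc1, a nucleolar chaperone, stood at 4.09, 4.0 and 4.14 with DEX and 1.35, 1.27 and 1.62 with vehicle (change 2.66, SE 0.16), and Nop56, a core protein of box C/D particles, at 5.28, 5.21 and 5.20 with DEX and 2.96, 2.79 and 3.0 with vehicle (change 2.32, SE 0.09). In each gene the 3 DEX arrays lay within 0.5 of one another and above all vehicle arrays. Respiratory chain genes rose in 21 of 30 tested cases and none fell, or 1 at an unadjusted p under 0.05 by limma, with a median of 0.42 (0.25 with slide as a fixed block). That count was 12 with slide as a fixed block, 13 as a random block and 5 with median scaling. Cyc1, a subunit of complex III, rose by 0.98 (SE 0.12). In the unfolded protein and integrated stress response 13 of 29 tested members rose and 4 fell. The serine synthesis gene Phgdh rose by 1.01 (SE 0.08), and Ppp1r15a, which ends the stress response by dephosphorylating eIF2 alpha, fell by 0.82 (SE 0.09).

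Genes of lipid synthesis rose more often than they fell, and genes of lipid transport and storage fell more often than they rose. Of 33 tested sterol and fatty acid synthesis genes 14 rose and 4 fell, with a median of 0.32, or 0.16 with a fixed slide block and 0.17 with a random one. Fatty acid synthase (Fasn) had levels of 4.34, 4.59 and 4.37 with DEX, against 2.96, 2.41 and 2.53 with vehicle (change 1.80, SE 0.13), and Acaca, which makes its substrate, rose by 1.02 (SE 0.09). Fabp4, the fatty acid carrier of adipocytes and macrophages, stood at 6.59, 6.19 and 6.62 with DEX, against 3.74, 3.51 and 3.80 with vehicle, and rose 6.88-fold (change 2.78, SE 0.13). Lpl rose by 1.59 (SE 0.07) on its brightest probe. Of its 5 other tested probes, those at 0.94, 2.03 and 1.90 were also called higher, and those at 0.42 and -0.60 were not called. The cholesterol exporter genes fell, Abca1 by 1.94 (SE 0.20) and Abcg1 by 1.42 (SE 0.12), as did the lysosomal lipase gene Lipa by 1.80 (SE 0.16). On the list of efflux, uptake, storage and oxidation genes 16 of 30 tested members fell (53.3%) and 7 rose (23.3%). Of all genes tested 23.1% fell and 23.2% rose, so the share of rises is near that of all genes. Hypoxia-inducible and glycolytic genes fell in 13 and rose in 4 of 30 cases, the rises numbering 1 with a fixed slide block and 2 with a random one. The angiogenic factor Vegfa fell by 1.64 (SE 0.12) and the mitophagy receptor Bnip3 by 1.16 (SE 0.12).

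Surface receptors of alternatively activated and phagocytic macrophages were mostly lower. Of 30 tested scavenger, efferocytosis and alternative activation genes 19 fell and 5 rose, the rises numbering 3 with slide as a fixed or random block, and the median was -0.66. Mrc1, the mannose receptor, was above background on 2 of 3 DEX arrays, at -3.60, -3.34 and -3.85, against -0.76, -0.72 and -0.76 with vehicle (change -2.85, SE 0.18). The beta-glucan receptor Clec7a stood at -0.80, -0.70 and -0.99 with DEX, against 2.02, 2.02 and 1.92 with vehicle (change -2.82, SE 0.17), and the transcription factor Maf fell by 2.31 (SE 0.13). Among the receptor kinases for dying cells Axl fell by 1.67 (SE 0.17), the opposite of Mertk above. The bridging protein gene Mfge8, whose product links dying cells to integrins, was not called (change -0.02, adjusted p = 0.907).

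Matrix genes held some of the furthest falls. Tnc, which encodes tenascin C, was at least 36.9-fold lower, with vehicle levels of 0.91, 0.61 and 1.23 and no DEX array above background. The collagenase Mmp13 had levels of -2.37, -2.92 and -2.40 with DEX, against 1.57, 1.44 and 1.53 with vehicle (change -4.08, SE 0.26), the macrophage elastase Mmp12 was at least 3.1-fold lower, and the protease inhibitor Timp1 fell by 2.78 (SE 0.24). Yet the neutrophil-type collagenase Mmp8 stood at -0.47, -0.17 and -0.80 with DEX, against -3.72, -3.61 and -3.29 with vehicle, and rose by 3.06 (SE 0.17), and tissue factor (F3), which starts coagulation, rose by 1.77 (SE 0.24). In all 11 of 25 tested matrix, protease and coagulation genes fell (44%) and 6 rose (24%). The share of rises is near the 23.2% of all genes tested. Among genes of oxidative stress and iron, 7 of 25 tested fell (28%), 2 rose (8%) and 16 were not called, with a median of -0.01. The share of falls is near the 23.1% of all genes tested. Hepcidin (Hamp) was at least 5.63-fold lower, and Slc40a1, the iron exporter that hepcidin blocks, at least 1.47-fold lower, both with 0 of 3 DEX arrays above background. The transferrin receptor gene Tfrc rose by 1.23 (SE 0.11) on 1 probe and differed by 0.05 on another, which was not called.

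Survival and clock genes completed the lists. Of 23 tested BCL2 family, death receptor and survival genes 9 fell and 3 rose. Bcl2l11, which encodes the pro-apoptotic protein BIM, had levels of 0.08, -0.04 and 0.22 with DEX, against 2.31, 2.27 and 1.95 with vehicle (change -2.09, SE 0.11), and the kinase Pim1 fell by 2.03 (SE 0.16). Of 15 tested circadian genes 9 fell and 1 rose, with a median of -0.62. The repressor gene Bhlhe40 fell by 1.64 (SE 0.16), Tef, a factor of the PAR bZIP family, by 1.18 (SE 0.10), and Nfil3, which competes with such factors for DNA, rose by 1.01 (SE 0.11). Per1, a glucocorticoid target in many tissues, had overlapping levels of 3.59, 3.14 and 3.50 with DEX and 3.13, 3.48 and 3.81 with vehicle (change -0.06, not called). Lysosomal genes fell in 14 (43.75%) and rose in 7 (21.9%) of 32 cases, the share of rises near the 23.2% of all genes tested. The rises numbered 3 with a fixed slide block and 4 with a random one. The largest fall was that of Npc1 (-1.05, SE 0.12), which moves cholesterol out of lysosomes.

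Dexamethasone was also set against FF, a glucocorticoid of higher receptor affinity, whose 3 arrays lay on the same slide as those of DEX, at positions 2 to 4 against 5 to 7. Of 19505 genes tested, 4.14% were called, 2.28% higher and 1.86% lower in DEX. Inflammatory genes were among those higher with DEX than with FF. Il1b had levels of 5.84, 5.58 and 5.81 with DEX, against 4.17, 4.08 and 4.01 with FF, a difference of 1.66 (DEX minus FF, SE 0.15, adjusted p = 0.000886). Il6 stood at 4.63, 4.61 and 4.82 with DEX, against 3.41, 3.43 and 3.47 with FF (difference 1.25, SE 0.12), and Lif at -2.41, -2.58 and -2.48 with DEX, against -4.43, -4.39 and -3.76 with FF (difference 1.70, SE 0.30, 2 of 3 FF arrays above background). In these 3 genes no DEX array reached down to an FF array, while among all genes tested the arrays of both drugs did not overlap in 38.4%. Cxcl10 differed by 1.34 (SE 0.21, adjusted p = 0.00803), Nos2 by 1.10 (SE 0.12, adjusted p = 0.00227) and Il10 by 0.80 (SE 0.10, adjusted p = 0.00227). Of the 23 proinflammatory cytokines tested, 7 were called higher in DEX than in FF. Genes of DNA replication and mitosis were often lower in DEX than in FF: 23 of 46 replication genes and 16 of 43 mitosis genes were called lower. Of the 36 tested G1 cyclins, E2F and RB factors and CDK inhibitors, 5 were called higher in DEX than in FF and 1 lower. Tk1 had levels of 2.37, 2.35 and 2.28 with DEX, against 2.91, 3.27 and 3.14 with FF (difference -0.77, SE 0.12, adjusted p = 0.00834). Hp differed by -1.17 (SE 0.19, adjusted p = 0.0093), while Fkbp5, at 4.87, 4.44 and 4.68 with DEX and 4.50, 4.68 and 4.82 with FF, showed no called difference, with a 95% confidence interval from -0.30 to 0.29. The number of genes called, 807, was 131 to 217 when DEX replicate 1 or 3 or any 1 FF array was left out, 641 without DEX replicate 2 and 2 with median scaling (limma), so single differences from FF rest on few arrays. Both doses were 100 nM, a single dose each, so the differences hold for that dose alone.

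**Figure D5:**
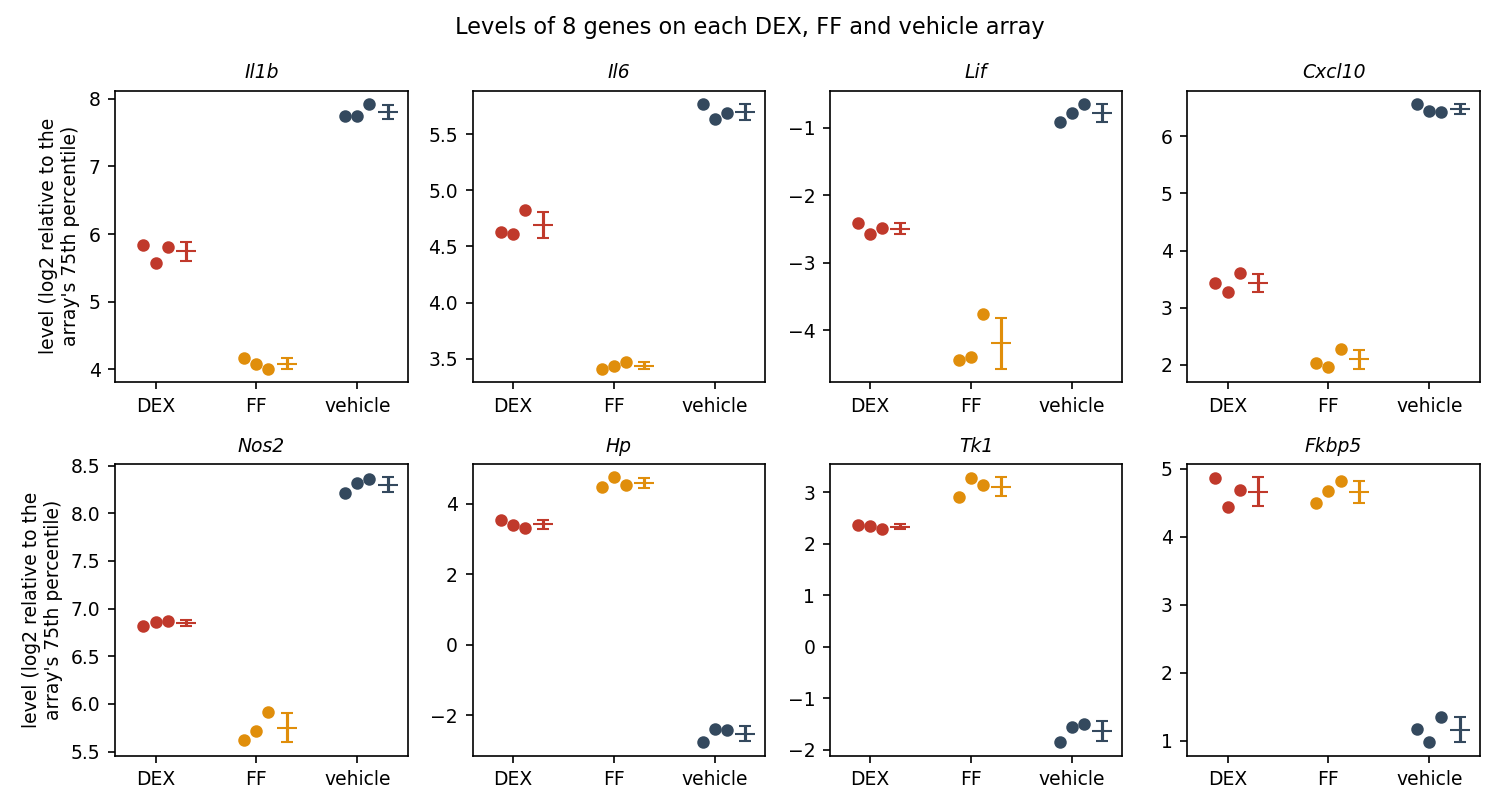
Levels of 8 genes on each DEX (left), FF (middle) and vehicle array (right), as log2 signal relative to the array's 75th percentile, with the mean and SD beside the points. For Il1b the DEX arrays lie between those of FF and vehicle, and for Fkbp5 DEX and FF arrays overlap.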

How the data were processed

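RNA of 15 RAW264.7 samples was measured on one-colour Agilent arrays, and the deposited scanner files hold intensities written by Feature Extraction 10.7.3.1, per the file headers. The processed signal (gProcessedSignal) is a background-corrected intensity made by the scanner software, per the file headers. The deposited value table holds log2 values, which tracked the log2 processed signals at r = 0.987 to 0.994 on each array. Its column medians were 5.80 to 5.83, its direction is that of the signal, and how it was normalized is not given in the sources used here. Per the submitters' processing notes limma was used, with its version not given in the sources used here.

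Of 62976 spots per array, 3671 controls were left out and outlier spots were set to missing (388 values in 339 genes on the 6 arrays). Log2 processed signals, averaged over the spots of a probe, were reduced by each array's 75th percentile. A probe entered the test if 2 or 3 arrays of any group were well above background for it, and each gene was represented by its brightest tested probe. Gene names are those of the files, with 366 updated through a RefSeq table. limma 3.58.1 in R 4.3.3 fitted 5 group means over 15 arrays (10 residual degrees of freedom) with Benjamini-Hochberg adjustment, calling genes at an adjusted p under 0.05. Precision is limited by the number of arrays, and an exact permutation test of 3 against 3 arrays cannot go below 0.1. Tested on simulated data for the contrast of DEX with vehicle, the fit recovered 25.8%, 56.7% and 80.6% of genes changed by 0.5, 1 and 2 on the log2 scale, and called 9 of 19306 unchanged genes. The simulated noise was independent between arrays, had no slide or position effect, and only 66, 67 and 67 genes were changed at these sizes. In the data 46.3% of genes were called and drug, slide and position coincide, so these rates cannot be carried over to them.

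The text names a set of key genes, the 15 largest rises and falls whose arrays do not overlap, and up to 5 called members each way of every list, apart from 1 key gene that is not reported here. Members, lists and naming rule were chosen with earlier results of these data known. Motifs were searched in RefSeq promoter windows (GRCm38.p6) with Python 3.11.15. The alternatives were other scalings, background correction, probe filters and probe choice, the value table, slide and position terms, a replicate block and leaving out each array.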

Additional observations from a re-analysis of the deposited data

How the results depend on the processing

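The 9037 genes called between DEX and vehicle were 7303 to 9309 under the other settings, except 4926 with median scaling and 38 with slide and position together, and the calls without 1 array numbered 7531 to 8340. The 3361 called at least 2-fold were 2027 with normexp background correction, 5369 with slide as a fixed block and 38 with slide and position, and 2925 to 3458 without 1 array. The share of calls that were higher was 50.08% and stayed between 45.06% and 53.21%, and between 49.7% and 51.68% without 1 array. For DEX against FF the 807 calls were 2 with median scaling, 379 in the value table, 111 without a filter, 1522 with slide as a fixed block, 0 with slide and position (limma, 2142 at an unadjusted p under 0.05), and 131 to 641 without 1 array. The cause was not tested. Of 163 genes named with a value, 159 to 163 kept direction and side of the threshold under each setting except slide with position. Under that setting 20 did, 142 lost their call and Nr3c1 turned to 0.27. Tnf, Nr3c1, Ccl2 and Mki67 were the genes of these 163 that lost a call elsewhere. Ly96, Irak1, Tlr13, Nfkb1 and Nfkbid, named above with their other probes, were not among the 163. Of these, Irak1 lost its call with slide as a fixed block. The median of the receptor and chaperone list turned to -0.26 with the mean over probes and to -0.090 with slide as a random block, and that of the eicosanoid list to 0.43 with slide and position, where all 54 list counts of 3 or more also moved by over 1.5 times. The replicate block called 8293 genes between DEX and vehicle, 8232 of them among the 9037, 3255 at least 2-fold, and 309 between DEX and FF. Same-numbered DEX and vehicle arrays deviated together with correlations of 0.115, 0.080 and 0.241, and each DEX array correlated best with its own number. Pairing by number was left out of the main fit and entered only through the replicate block. Scaling by the percentile over probes was chosen after seeing the data and called 9252 genes. Of the other tested probes of the 163 genes, 73 pointed the same way with a call and 7 without one. Probes of Lpl and Myc, 2 in all, pointed the opposite way without a call, and 0 were called in the opposite direction. Ly96 and Nfkb1, outside the 163, each had a probe called in the opposite direction. The naming rule picked more genes than the text names. Over that wider set 111 other probes pointed the same way with a call and 27 without one. Another 23 pointed the opposite way without a call, and 7 were called in the opposite direction, among them probes of E2f7, Trem1, Ly96 and Nfkb1. Probes near background limit the size of the largest changes to lower bounds.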

Other observations

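Several of the 15 largest rises and the 15 largest falls are genes outside the lists. Fkbp11, a peptidyl-prolyl isomerase of the secretory pathway, had levels of -0.77, -0.23 and 0.13 with DEX, against -4.16, -5.66 and -4.08 with vehicle, with 2 of 3 vehicle arrays above background (change 4.34, SE 0.67, adjusted p = 0.000242 by limma). Dnase1l3, which digests DNA released by dying cells, stood at -0.74, 0.33 and -0.16 with DEX, against -4.37, -4.17 and -3.84 with vehicle, again with 2 of 3 vehicle arrays above background (change 3.93, SE 0.99). Papss2, which makes the donor for sulfation reactions, was at least 5.65-fold higher and the nuclease gene Ankle1 at least 6.71-fold higher, with no vehicle array above background for either. In the other direction the activin subunit gene Inhba was at least 6.47-fold lower, the keratin gene Krt23 at least 14.1-fold, the oxysterol-binding protein gene Osbp2 at least 9.46-fold and the neuropeptide gene Npy at least 4.67-fold. For these genes all 3 vehicle arrays and none of the DEX arrays were above background.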
